A study of Homo sapiens with 6 samples.

Results

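Ligands of the TGF-beta superfamily and their secreted antagonists were followed as a set of 10 genes, chosen by name in the deposited expression table, which holds 58735 named genes. The set comprises the activin subunits INHBA and INHBB, the TGF-beta isoforms TGFB1, TGFB2 and TGFB3, the bone morphogenetic proteins BMP2 and BMP4, the distant relative GDF15, and the activin-binding antagonists FST and FSTL3. All 10 names were found. RNA had been sequenced from 8505C, an established cell line of human anaplastic thyroid carcinoma that is labelled untreated throughout. A group of 3 libraries was labelled with a short hairpin RNA against HHEX, and a group of 3 with a control hairpin, whose genotype label reads wild type. HHEX encodes a homeobox transcription factor of thyroid development. The columns of the table name the libraries KD1, KD2 and KD3 and control1, control2 and control3. The labels and the design text do not say how many hairpins or clones were used, and nothing ties the biological replicates they name to separate cultures. The titles number the libraries of each group 1_1, 1_2 and 2_1, so that 2 of the 3 share a first number, and which columns these are is not given. Each p-value therefore reflects only how these libraries vary, which may be technical.

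Members of the superfamily are secreted as dimers and signal through pairs of type I and type II receptor kinases that phosphorylate SMAD proteins. Activins and TGF-betas act mainly through SMAD2 and SMAD3, and BMPs through SMAD1, SMAD5 and SMAD9. Follistatin, the product of FST, and the follistatin-like protein FSTL3 wrap around activin and keep it from its receptors. GDF15 acts in the hindbrain through the receptor GFRAL and is known as a transcript induced by cellular stress. In thyroid epithelium TGF-beta1 and activin A are known to restrain growth.

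The windows of 250 bases before the RefSeq starts were searched for 7 motifs on both strands, and the matches of the 3 members that differed most between libraries are shown so that they can be read beside the values. RefSeq, build GRCh38.p14, held windows for 9 of the 10 genes. GENCODE exons of the same gene, which include untranslated sequence, take up 18 bases of the INHBA window, 220 of the FST window and 241 of the GDF15 window, so that 30 bases around each match are printed. They run 5' to 3' on the strand of the gene, and capitals mark the match.
INHBA, chr7:41703091-41703120, minus strand: gtacaaataagtagtacagTATAAAacttc
FST, chr5:53480457-53480486, plus strand: ggaaatgtcaccTGATTCAcactgaacttt
GDF15, chr19:18386117-18386146, plus strand: aagtccggggacTATAAAggccggtccggc
The motifs were TGANTCA, which holds the site of AP-1, the cyclic AMP response element TGACGTCA, the C/EBP-ATF site TGATGNAAT, the SMAD palindrome GTCTAGAC, the GC-rich site GGCGCC, the homeodomain core TAATTA and the TATA box TATAAA. INHBA and GDF15 matched TATAAA alone, INHBA at 11 to 6 and GDF15 at 29 to 24 bases before the start. The RefSeq starts of all 3 lie within the longer spans that GENCODE gives these genes. FST matched TGANTCA alone, at 160 to 154 bases before the start and with T in its centre. TGANTCA is looser than the site of AP-1, so that this match need not be that site. Among the members not shown, TGFB2 and TGFB3 matched TATAAA at 29 to 24 and 30 to 25 bases before a start. FSTL3 matched it at 29 to 24 on the opposite strand, so that this match is not particular to the members shown. Of 35116 windows of this length, 10.7% held TATAAA and 6.57% held TGANTCA. The others were held by 16.4% (GGCGCC), 4.35% (TAATTA), 1.65% (TGACGTCA), 0.888% (TGATGNAAT) and 0.182% (GTCTAGAC).

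HHEX, the target of the hairpin, was at 14.8, 7.93 and 7.12 CPM (counts per 1000000, scaled by library composition) across KD1, KD2 and KD3, against 12.6, 12.8 and 12.0 CPM in control1, control2 and control3. It was thus at 118% of the control mean in KD1, which goes against that label, and at 63.6% and 57.1% in KD2 and KD3. Between the groups the log2 fold change of -0.33 (SE 0.28) fell short of the threshold in edgeR with Benjamini-Hochberg adjustment (adjusted p = 0.527, exact two-sided permutation p = 0.4, where 3 against 3 libraries cannot go below 0.1). KD1, KD2 and KD3 hereafter name the libraries by their column labels, and each direction for the group includes KD1. KD1 and KD2 correlated at r = 0.989 across the log2 CPM of 14280 tested genes, while KD3 stood at 0.955 and 0.956 to them and at 0.971 to 0.977 to the controls. Genes are not independent replicates in these correlations. Between KD1 and KD2 the mean chi-square per gene was 7.20, more than sampling noise, which gives about 1, and less than the 11.0 to 17.1 between pairs of controls. They were kept as separate libraries, but this does not show that they come from separate cultures, and results that change when they are summed as 1 library are given with that value. Libraries held 13333245 to 15144176 counts over named genes. The floor drawn for a gene at 0 is 3 counts, which equal 0.198 to 0.225 CPM without scaling by composition. Keratins KRT8 and KRT18 were at 325 CPM or more in every library and the thyroid factor NKX2-1 at 17.97 to 50.5 CPM, while the thyroid genes TG and TSHR lay at 0.299 CPM or less. Of the other epithelial markers EPCAM was at 0.202 to 1.69 CPM across KD1, KD2 and KD3, against 1.33 to 2.28 CPM in the controls, KRT19 at 0.0674 to 0.352 CPM, against 0, and CDH1 at 0, against at most 0.0747 CPM.

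INHBA was the member that rose. It encodes the beta A subunit, whose dimer is activin A, and lies on chromosome 7 at 41667168 to 41705834 on the minus strand of GRCh38. INHBA was at 17.8, 19.2 and 22.8 CPM across KD1, KD2 and KD3, against 4.33, 3.85 and 5.86 CPM in control1, control2 and control3. Each library labelled HHEX shRNA stood above each control, and the groups did not overlap. This includes KD1, in which HHEX was at 118% of the control mean. The means were 19.9 ± 2.56 and 4.68 ± 1.05 CPM (SD, n = 3 libraries each), or 4.25-fold by edgeR. That is 2.09 on the log2 scale (SE 0.22, 95% confidence interval 1.58 to 2.59), and it passed edgeR's test (adjusted p = 0.0173). Set against the controls alone, INHBA was 3.80-fold their mean in KD1, 4.10-fold in KD2 and 4.86-fold in KD3. With the spread taken from the controls, to which the lone library is assumed to conform, edgeR gave adjusted p = 8.59e-05 for KD1, 0.000154 for KD2 and 0.00031 for KD3. The log2 fold change stayed between 1.98 and 2.28 when any 1 library was left out, but the call was lost without KD1 (adjusted p = 0.0703), KD2 (0.0658), control1 (0.147), control2 (0.106) or control3 (0.158) and with KD1 and KD2 summed as 1 library (0.0661), and held without KD3 (1.75e-05). The antisense gene INHBA-AS1 shares part of the span, and as no source says that reads were counted by strand its reads cannot be told apart from those of INHBA. It was listed with 0, 3 and 4 counts in KD1, KD2 and KD3, against 3, 0 and 0 in control1, control2 and control3, beside 58 to 323 for INHBA.

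INHBB, the beta B subunit of activin B (chromosome 2, 120346143 to 120351808, plus strand), had 0 counts in all 6 libraries. At a count of 0 the exact 95% Poisson interval reached 0.249, 0.263 and 0.26 CPM across KD1, KD2 and KD3. In control1, control2 and control3 the interval reached 0.276, 0.245 and 0.24 CPM, for counting error only. INHBB was the only member under the filter on low counts, and the other 9 were tested. INHA, the alpha subunit that turns beta subunits into inhibins, was at 1.15, 0.429 and 0.141 CPM across KD1, KD2 and KD3, against 0.672, 0.199 and 0.456 CPM in the controls, and was not tested. The groups overlap. Among the activin subunit genes measured, INHBA and the liver-type subunit gene INHBE were those above 2 CPM in any library.

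**Figure D1:**
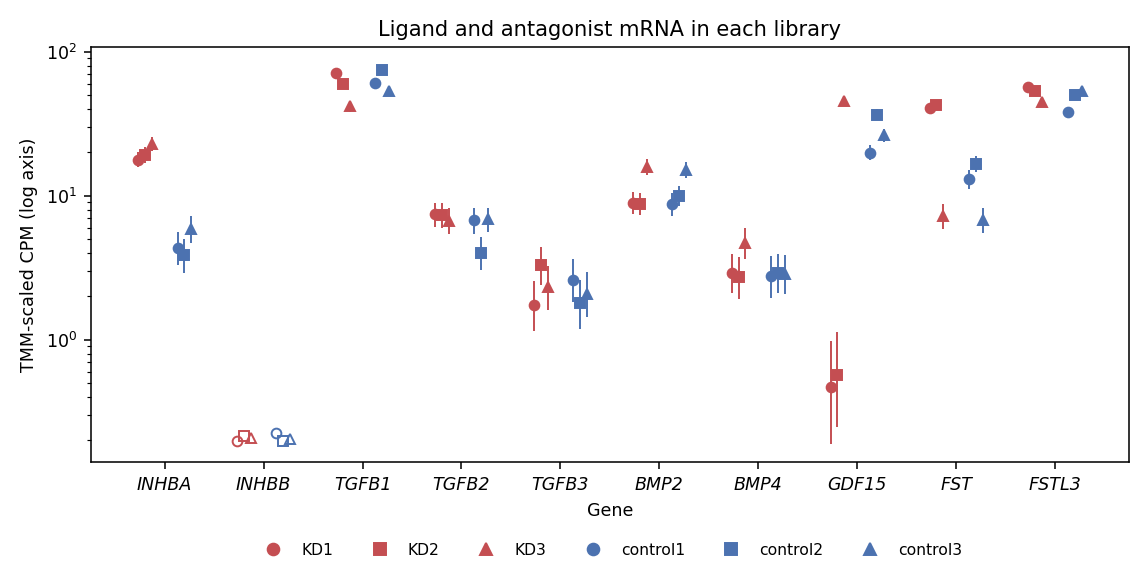
TMM-scaled CPM on a log axis for the 10 members in each library, with exact 95% Poisson intervals as bars. Libraries labelled HHEX shRNA stand left of the controls for each gene, and open symbols mark INHBB, drawn at the floor of 3 counts since it had 0. INHBA separates the groups, at 17.8 to 22.8 CPM against 3.85 to 5.86 CPM, and GDF15 is under 1 CPM in KD1 and KD2 alone.

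FST, the strong antagonist of activin (chromosome 5, 53480409 to 53487134, plus strand), differed among the libraries labelled HHEX shRNA more than between the groups. It was at 40.9, 42.6 and 7.19 CPM across KD1, KD2 and KD3, against 13, 16.5 and 6.77 CPM in control1, control2 and control3. KD1 and KD2 stood above every control, while KD3 lay near control3, the lowest of them. The group value of 1.32 on the log2 scale (SE 0.63, 95% confidence interval -0.15 to 2.80) did not pass edgeR's test (adjusted p = 0.281). Without KD3 it was 1.81 and passed (adjusted p = 0.00121). Against the controls alone FST was 3.38-fold their mean in KD1 and 3.52-fold in KD2 (edgeR adjusted p = 0.0132 and 0.00829), and at 59.4% of it in KD3 (adjusted p = 0.482). The controls themselves differed 2.44-fold from lowest to highest, the widest control range of the 9 tested members.

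FSTL3, the other activin-binding antagonist (chromosome 19, 676365 to 683399, plus strand), stayed within a narrow range. It was at 57.3, 53.7 and 44.9 CPM across KD1, KD2 and KD3, against 38.1, 50.4 and 53.2 CPM in control1, control2 and control3. The groups overlap, and the log2 fold change was 0.14 (SE 0.17, 95% confidence interval -0.24 to 0.51, edgeR adjusted p = 0.657). That interval leaves room for a change of up to 0.51 on the log2 scale upwards.

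Because the antagonists bind the activin subunit, their mRNA was also set against INHBA in the same library, as a ratio of CPM per kilobase of merged exons. FST was at 6.43, 6.20 and 0.883 times INHBA in KD1, KD2 and KD3, against 8.39, 12.0 and 3.23 times in control1, control2 and control3. KD3 was the library in which FST mRNA lay below INHBA mRNA per length. FSTL3 was at 8.72, 7.57 and 5.34 times INHBA in KD1, KD2 and KD3, against 23.8, 35.4 and 24.6 times in the controls, without overlap of the groups. These ratios share INHBA, whose own rise enters both, and they were not tested. They describe mRNA and not secreted protein.

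**Figure D2:**
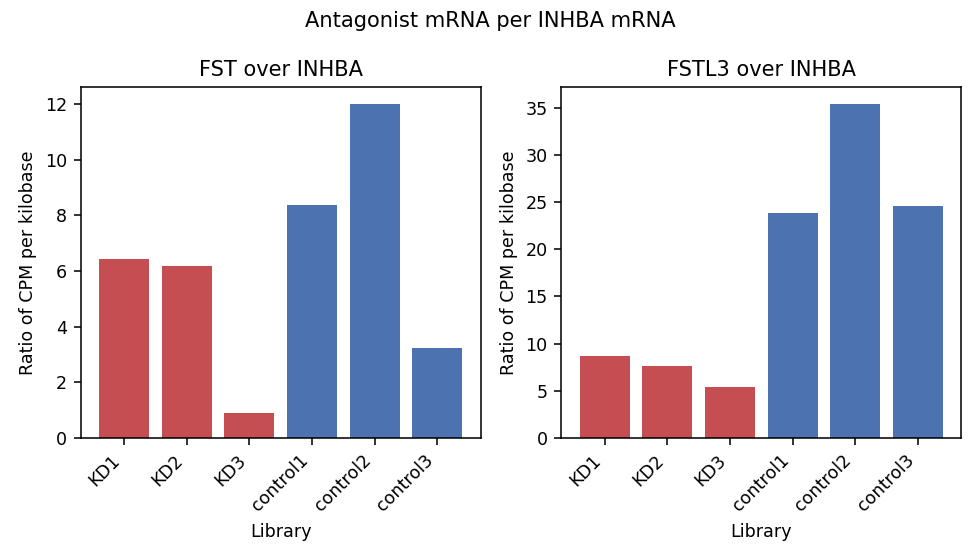
Ratio of FST (left) and FSTL3 (right) to INHBA in each library, each level as CPM per kilobase of merged exons, from 0. Red bars are the libraries labelled HHEX shRNA and blue bars the controls. FSTL3 over INHBA is 5.34 to 8.72 in the red bars and 23.8 to 35.4 in the blue ones, while FST over INHBA overlaps and is lowest in KD3.

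TGFB1 was the main TGF-beta isoform at the mRNA level. It encodes a cytokine that is secreted in latent form (chromosome 19, 41301587 to 41353911, minus strand), and per kilobase it made up 92.5%, 89.8% and 87.9% of the summed isoforms in KD1, KD2 and KD3, against 91.0%, 95.3% and 90.3% in the controls. TGFB1 was at 71.6, 59.6 and 41.7 CPM across KD1, KD2 and KD3, against 60.5, 74.8 and 53.1 CPM in control1, control2 and control3. KD3 was lower than any control and the other libraries were mixed. The log2 fold change was -0.12 (SE 0.21, 95% confidence interval -0.61 to 0.36, edgeR adjusted p = 0.764), and KD3 alone against the controls had -0.59 (adjusted p = 0.222). Part of its span is shared with HNRNPUL1, CCDC97 and TMEM91 on the opposite strand, so that its reads are uncertain where strand was not used. HNRNPUL1 held 6498, 6226 and 4031 counts in KD1, KD2 and KD3, against 4218, 4819 and 4717 in the controls.

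TGFB2 and TGFB3, the isoforms known for roles in heart and palate development, were low. TGFB2 (chromosome 1, 218346235 to 218444619, plus strand) was at 7.41, 7.36 and 6.70 CPM across KD1, KD2 and KD3, against 6.72, 3.98 and 6.83 CPM in control1, control2 and control3. Control2 was the low library, and the others were alike (log2 fold change 0.29 with SE 0.26, edgeR adjusted p = 0.539). TGFB3 (chromosome 14, 75958099 to 75982991, minus strand) was at 1.75, 3.29 and 2.33 CPM across KD1, KD2 and KD3, against 2.62, 1.79 and 2.08 CPM in the controls. It rests on 26 to 46 counts a library, so that the Poisson intervals of all 6 libraries overlap, and its log2 fold change was 0.18 (SE 0.35, edgeR adjusted p = 0.794). TGFB3 lies wholly within IFT43 on the opposite strand, which held 198 to 263 counts in KD1, KD2 and KD3, against 247 to 394 counts in the controls.

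BMP2 and BMP4, ligands known for bone formation and embryonic patterning, did not separate the groups. BMP2 (chromosome 20, 6767664 to 6780280, plus strand) was at 8.96, 8.78 and 15.9 CPM across KD1, KD2 and KD3, against 8.74, 10.03 and 15.1 CPM in control1, control2 and control3. KD3 and control3 were the high libraries of their groups, and the log2 fold change was -0.01 (SE 0.30, 95% confidence interval -0.70 to 0.67, edgeR adjusted p = 0.985), a sign that turned to 0.01 with RLE scaling. BMP4 (chromosome 14, 53949736 to 53958761, minus strand) was at 2.90, 2.71 and 4.72 CPM across KD1, KD2 and KD3, against 2.76, 2.92 and 2.86 CPM in the controls. KD3 alone was higher, at 67 counts against 37 to 44 in the controls, but KD3 against the controls did not pass edgeR's test (log2 fold change 0.73, adjusted p = 0.433). The group value was 0.27 (SE 0.31, edgeR adjusted p = 0.637). Per kilobase BMP2 was at 2.65 to 2.87 times BMP4 in KD1, KD2 and KD3, against 2.71 to 4.51 times in the controls.

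GDF15 showed the widest span of the set. It encodes a secreted stress cytokine and lies on chromosome 19 at 18374731 to 18389176 on the plus strand. GDF15 was at 0.472, 0.571 and 45.2 CPM across KD1, KD2 and KD3, which are 7, 8 and 641 counts, against 19.9, 36.5 and 26.2 CPM in control1, control2 and control3, or 266, 550 and 403 counts. KD1 and KD2 stood far below every control and KD3 above every control, a 95.8-fold range within the libraries labelled HHEX shRNA, against 1.84-fold within the controls. The control mean was 58.4 times the level of KD1 (exact 95% Poisson interval of KD1 0.19 to 0.972 CPM) and 48.2 times that of KD2 (0.247 to 1.13 CPM). KD3 was at 164% of the control mean. Against the controls alone edgeR gave log2 fold changes of -5.81 for KD1 (adjusted p = 1.73e-06) and -5.57 for KD2 (8.56e-06), and 0.71 for KD3, which did not pass (0.26). The group comparison therefore gave -0.84 on the log2 scale with an SE of 1.42 (95% confidence interval -4.26 to 2.58) and did not pass edgeR's test (adjusted p = 0.763), and without KD3 it was -5.68 (adjusted p = 6.01e-07). HHEX was at 118% of the control mean in KD1 and at 63.6% in KD2, so that the libraries low in GDF15 differed in their level of HHEX. In bulk RNA, fewer cells that express a gene and less RNA per cell cannot be told apart.

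**Figure D3:**
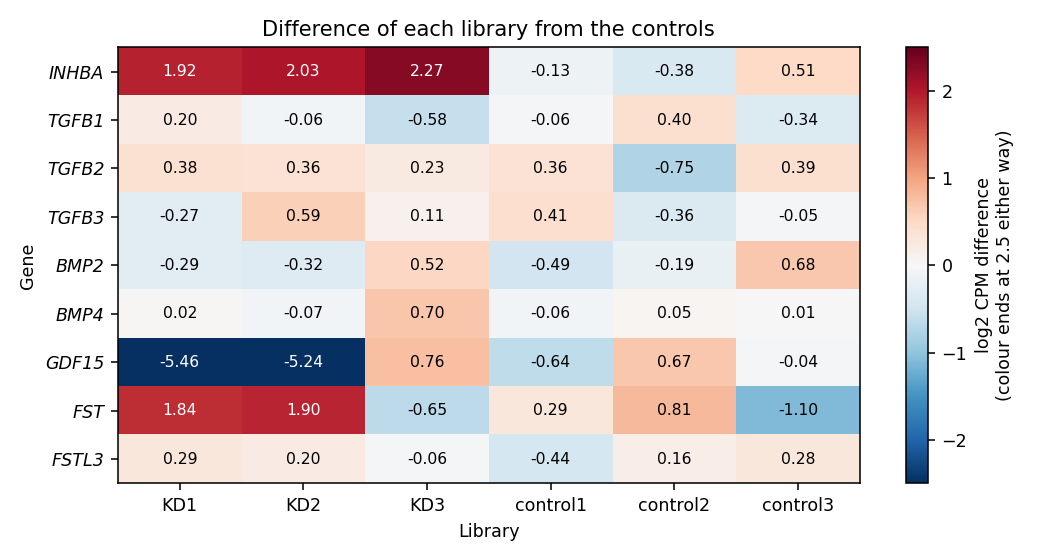
Log2 CPM difference of each library from the control mean, or for a control from the mean of the other 2 controls, for the 9 tested members. Red is higher and blue lower, and the colour ends at 2.5 in either direction. INHBA is red in KD1, KD2 and KD3, while FST and GDF15 have the same sign in KD1 and KD2 and the opposite sign in KD3.

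Of the 9 tested members 1 was called higher and 0 lower, where 0.182% of the 14280 tested genes were called. INHBA was also the 1 member whose groups did not overlap, against 24.9% of all tested genes. The median log2 fold change was 0.18 over the tested members and -0.01 over all tested genes, and 6 members had a positive value and 3 a negative one, a split that became 7 and 2 with RLE scaling since BMP2 changed sign. More than 2-fold from the control mean were 3 members in KD1 and 3 in KD2, namely INHBA, FST and GDF15, and 1 in KD3, namely INHBA. Of all tested genes, 12.4% lay beyond this fold in KD1, 12.7% in KD2 and 5.55% in KD3. Tested singly against the controls, 3 members were called in KD1, 3 in KD2 and 1 in KD3, where 15.2%, 15.6% and 1.22% of the genes were called. These comparisons share the controls. Among the controls, 0 members lay beyond this fold in control1 (3.07% of genes) and control2 (3.1%) and 1, FST, in control3 (3.07%). By group, 0 members were called without KD1, KD2, control2 or control3 (0% of all genes) or without control1 (0.00674%), 0 with KD1 and KD2 summed as 1 library (0%), and 3 without KD3 (31.6%), while DESeq2 called INHBA alone among the members (5.52% of all genes).

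**Figure D4:**
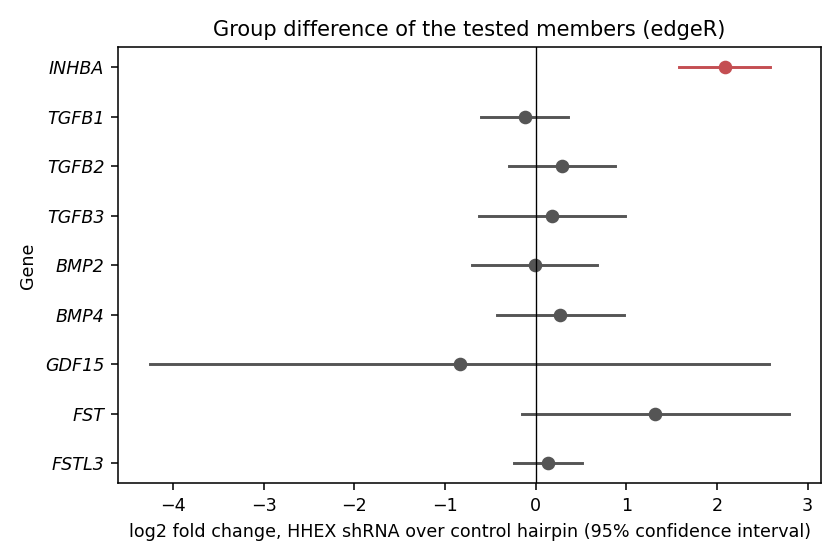
Log2 fold change of the libraries labelled HHEX shRNA over the controls for the 9 tested members, as points with 95% confidence intervals from edgeR. INHBA, in red, is the member past an adjusted p of 0.05, at 2.09, and the interval of GDF15 is the widest, from -4.26 to 2.58.

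Per kilobase of merged exons, the order of the members in the controls ran from TGFB1 (19.4 ± 3.41 CPM per kilobase, SD, n = 3) through FSTL3 (15.4 ± 2.62), GDF15 (13.2 ± 4.02), FST (4.08 ± 1.66), BMP2 (3.14 ± 0.934), TGFB2 (1.14 ± 0.314), BMP4 (0.925 ± 0.0257) and INHBA (0.564 ± 0.126) to TGFB3 (0.44 ± 0.0849), with INHBB at 0. The control ranges of TGFB1, FSTL3 and GDF15 overlap, as do those of FST and BMP2, of TGFB2 and BMP4, and of INHBA and TGFB3. In KD1, KD2 and KD3 INHBA was at 2.14, 2.31 and 2.74 CPM per kilobase, and BMP2 at 2.49, 2.44 and 4.40. GDF15 was the lowest detected member per kilobase in KD1 and KD2, at 0.226 and 0.274, and the highest in KD3, at 21.6.

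Other genes of the pathway were taken from lists by role, described by counts and medians without a test of the list. Of 23 other ligand genes 7 passed the filter, and 0 were called by edgeR (3 at an unadjusted p under 0.05, as were 20.6% of all tested genes, and by DESeq2 BMP5 alone). BMP5, a BMP ligand, was at 32.2, 36.8 and 23.7 CPM across KD1, KD2 and KD3, against 17.1, 15.5 and 19.9 CPM in the controls, without overlap (edgeR adjusted p = 0.107). GDF11, a relative of myostatin, was at 26.1, 29.6 and 13.7 CPM, against 13.4, 13.5 and 16.1 CPM in the controls (edgeR adjusted p = 0.207). BMP6 was at 1.82 to 2.33 CPM across KD1, KD2 and KD3, against 0.586 to 1.39 CPM in the controls, and BMP8B at 9.77 to 13.7 CPM, against 12.9 to 15.9 CPM (edgeR adjusted p = 0.22 and 0.287). The list median was -0.12.

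Of 17 receptor and co-receptor genes 14 were tested and 0 called (2 at an unadjusted p under 0.05, against 20.6% of all tested genes, and by DESeq2 TGFBR1 alone), with a median log2 fold change of 0.16. TGFBR1, the type I receptor of TGF-beta, was at 197, 218 and 79.5 CPM across KD1, KD2 and KD3, against 95.3, 74.0 and 80.2 CPM in the controls (edgeR adjusted p = 0.184). KD1 and KD2 stood above every control and KD3 among them. TGFBR3, the co-receptor betaglycan, was at 53.2, 56.4 and 38.5 CPM, against 42.7, 40.4 and 38.2 CPM, and BMPR2, the type II BMP receptor, at 48.2, 55.1 and 53.1 CPM, against 45.6, 37.7 and 51.4 CPM (edgeR adjusted p = 0.34 and 0.425). ACVRL1, a type I receptor best known from endothelium, was at 2.75 to 3.50 CPM, against 4.18 to 8.59 CPM (edgeR adjusted p = 0.187). The activin receptors were measured at 28.2 to 32.3 CPM for ACVR1B, 10.2 to 16.5 CPM for ACVR2A and 28.2 to 34.7 CPM for ACVR2B in KD1, KD2 and KD3, against 32.2 to 35.2, 14.8 to 16.6 and 22.4 to 30.1 CPM in the controls. GFRAL, the receptor of GDF15, had 0 counts in all libraries.

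Of 18 other antagonist genes 9 were tested and 0 called (4 at an unadjusted p under 0.05, against 20.6% of all tested genes, and by DESeq2 BMPER alone), with a median of 0.11. BMPER, a secreted binder of BMPs, was at 9.43, 8.78 and 8.81 CPM across KD1, KD2 and KD3, against 3.89, 4.32 and 5.21 CPM in the controls (log2 fold change 1.01 with SE 0.21 and edgeR adjusted p = 0.0941). Its groups did not overlap, and KD1, KD2 and KD3 were alike. CHRDL1, a chordin-like BMP antagonist, was at 116, 121 and 93.9 CPM, against 169, 129 and 148 CPM, also without overlap (edgeR adjusted p = 0.177). KCP was at 0.472, 0.571 and 1.83 CPM, against 2.24, 1.99 and 3.45 CPM, and NBL1, a binder of BMPs, at 62.7, 46.0 and 33.8 CPM, against 30.8, 40.1 and 25.4 CPM (edgeR adjusted p = 0.201 and 0.241).

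Genes for latency and activation hold ligands in latent form or release them from their precursors or from matrix. Of 16 such genes 9 were tested and 0 called (5 at an unadjusted p under 0.05, against 20.6% of all tested genes, and by DESeq2 THBS1 alone), with a median of -0.001. THBS1, a matrix protein known to activate latent TGF-beta, was at 425, 462 and 148 CPM across KD1, KD2 and KD3, against 135, 116 and 140 CPM in the controls (edgeR adjusted p = 0.134). FURIN, a protease that cleaves ligand precursors, was at 129, 133 and 90.0 CPM, against 82.3, 85.8 and 82.5 CPM (edgeR adjusted p = 0.157). LTBP4, which holds latent TGF-beta in matrix, was at 72.6, 76.3 and 77.5 CPM, against 97.7, 133 and 105 CPM, and BMP1, a protease of chordin and procollagen, at 41.4, 38.4 and 40.6 CPM, against 58.8, 58.0 and 51.7 CPM (both edgeR adjusted p = 0.113). Of the 9 tested genes, 6 had groups that did not overlap, against 24.9% of all tested genes. The 4 genes named here, picked for the smallest p of the list, are among those 6.

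Of 16 transcripts known to respond to SMAD signalling, all tested, 13 had a positive log2 fold change, as had 48.6% of all tested genes. Under each scaling tried 13 did so, and the median was 0.50. Groups did not overlap, in either direction, for 9 of the 16, against 24.9% of all tested genes. Of these 9, TGIF1 and LTBP2 were lower in the libraries labelled HHEX shRNA and the others higher. LTBP2 is also on the list for latency and activation. EdgeR called 0 of the 16 (7 at an unadjusted p under 0.05, against 20.6% of all tested genes). DESeq2 called 4 (5.52% of all genes), among them ID2, SMAD6 and TGFBI. ID2, an inhibitor of helix-loop-helix factors, was at 8.09, 9.71 and 12.1 CPM across KD1, KD2 and KD3, against 4.63, 4.58 and 4.43 CPM in the controls (log2 fold change 1.13 with SE 0.22 and edgeR adjusted p = 0.0817). SMAD6, an inhibitory SMAD of the BMP branch, was at 15.2, 14.9 and 3.03 CPM, against 2.54, 2.46 and 2.54 CPM (edgeR adjusted p = 0.12), and CTGF, a matricellular protein, at 285, 269 and 212 CPM, against 176, 185 and 182 CPM (edgeR adjusted p = 0.131). As a difference in log2 CPM from the controls, the list medians were 0.64 (KD1), 0.61 (KD2) and 0.18 (KD3), against -0.10 to 0.02 in the controls.

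Stress response genes were listed because GDF15 is known to be induced by ATF4 and DDIT3. Their medians were -2.18 (KD1), -2.07 (KD2) and 0.19 (KD3), against -0.13 to 0.18 in the controls, so that the list was low in the same libraries as GDF15. Of the 11 tested genes edgeR called 0 by group (1 at an unadjusted p under 0.05, against 20.6% of all tested genes, and DESeq2 0), and without KD3 it called 9 lower and 1 higher, where 31.6% of all genes were called. TRIB3, a pseudokinase, was at 32.9, 28.4 and 220 CPM across KD1, KD2 and KD3, against 221, 272 and 215 CPM in the controls, and ASNS, asparagine synthetase, at 0.0674, 0.857 and 2.26 CPM, against 2.47, 2.85 and 4.10 CPM (edgeR adjusted p = 0.346 and 0.276). VLDLR and ATF5 went the other way, at 24.0 to 37.3 and 6.62 to 8.63 CPM, against 19.9 to 22.3 and 5.38 to 6.31 CPM (edgeR adjusted p = 0.147 and 0.288). DDIT3 and INHBE were named after their values were seen. DDIT3, the transcription factor CHOP, was at 2.09, 1.57 and 53.8 CPM, against 52.5, 81.6 and 53.8 CPM in the controls. INHBE, the activin beta E subunit, was at 1.01, 1.36 and 29.3 CPM, against 28.9, 26.8 and 44.5 CPM, a second ligand gene that was low in KD1 and KD2 and not in KD3 (log2 fold change -1.66, SE 1.14, edgeR adjusted p = 0.437).

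**Figure D5:**
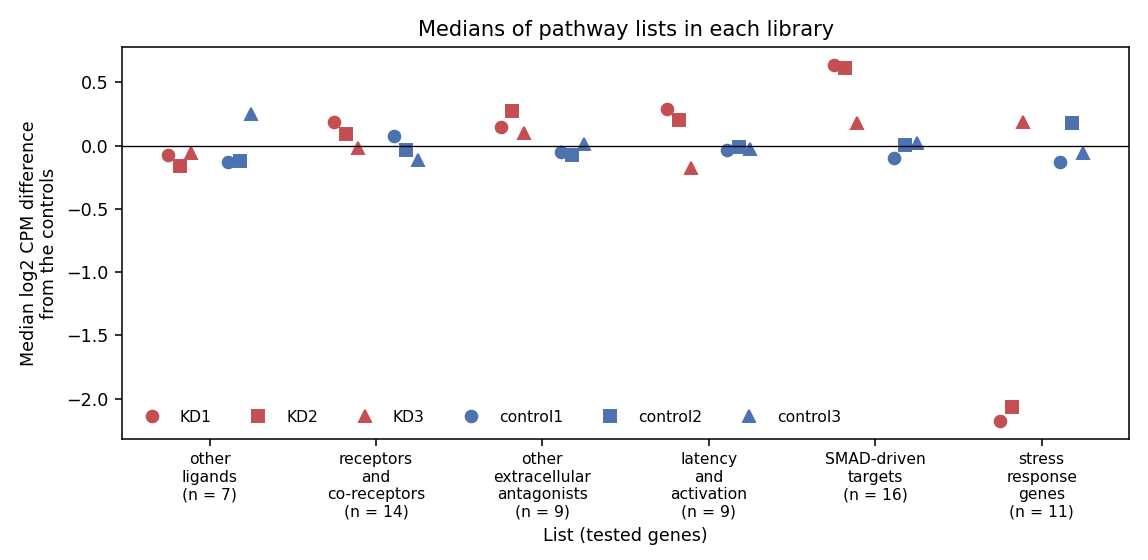
Median log2 CPM difference from the controls in each library for the tested genes of 6 lists, with the number of genes under each name. Libraries labelled HHEX shRNA stand left of the controls. KD1 and KD2 lie at 0.64 and 0.61 for SMAD-driven targets and at -2.18 and -2.07 for stress response genes, while KD3 lies at 0.18 and 0.19.

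The 5 genes with the pattern most like INHBA were sought among 7953 genes whose mean reached 20 CPM in the higher group. The measure was the root mean square difference of log2 CPM less the control mean over the 6 libraries. INHBA itself, at a mean of 19.9 CPM, fell just short of that level. The 5 genes were SERPINB2 (0.18), MMP3 (0.41), GCLM (0.45), FRMD3 (0.52) and HSPH1 (0.52). By group mean, all but HSPH1 reached 20 CPM only in the libraries labelled HHEX shRNA. The filter therefore let them in through the group where they are high. SERPINB2, an inhibitor of plasminogen activators, was at 20.01, 18.6 and 23.1 CPM across KD1, KD2 and KD3, against 3.96, 5.25 and 6.25 CPM in the controls. MMP3, a matrix protease, was at 24.1, 23.4 and 39.1 CPM, against 5.83, 8.30 and 5.01 CPM. GCLM was highest in KD3, at 147 CPM against 52.2 and 53.1 in KD1 and KD2. Among these libraries FRMD3 was lowest in KD3, at 18.7 against 40.7 and 39.2 CPM.

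Markers of fibroblasts and leukocytes were low, while some endothelial markers were not. Summed over each list, the 8 fibroblast markers lay at 4.65 to 7.28 CPM across KD1, KD2 and KD3, against 4.51 to 7.62 CPM in the controls, and the 8 leukocyte markers at 3.03 to 4.25 CPM, against 2.99 to 4.85 CPM, with LYZ at 0. The 7 endothelial markers lay at 30.2 to 54.1 CPM, against 47.8 to 53.2 CPM, most of it from ENG. CDH5 was at 11.0, 9.93 and 2.61 CPM across KD1, KD2 and KD3, against 10.3 to 10.9 CPM in the controls. PECAM1 was at 1.90 to 3.91 CPM, against 4.10 to 5.90 CPM, and VWF, KDR, TEK and CLDN5 at 0.493 CPM or less in every library. The nuclear transcripts listed for RNA quality had medians of -0.11, 0.20 and 0.10 across KD1, KD2 and KD3, against -0.33 to 0.56 in the controls. Of these NEAT1, a nuclear long non-coding RNA, was at 426, 462 and 502 CPM across KD1, KD2 and KD3, against 551, 1031 and 1115 CPM in the controls, without overlap (log2 fold change -0.96 with SE 0.25 and edgeR adjusted p = 0.12), and DESeq2 called it. The part of these markers in the results was not tested.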

How the data were processed

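Counts of reads per gene were deposited by the authors as whole numbers in a table with 1 column per library. A further 6 columns of per-sample FPKM values were not used. Trizol extraction and TIANSeq mRNA capture and library kits were used, per the labels' protocols. For the aligner, the counter, the build and the use of strand, nothing is given in the sources used here. Start and end of 58672 of 58735 named genes equal GENCODE 29 on GRCh38. The 998 rows of 59733 without a gene name, with 0.239% to 0.298% of the counts, were left out. Columns carry a group name but not the replicate label of the titles, and each was assigned to its group only.

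Genes were filtered with filterByExpr and scaled by TMM, and edgeR 4.0.16 in R 4.3.3 (glmQLFit with robust estimation, glmQLFTest, no covariates) compared the groups, with Benjamini-Hochberg adjustment over 14280 genes and a threshold of 0.05. The SE is the log2 fold change divided by the square root of F. Log2 CPM used a prior count of 2. DESeq2 1.42.0 was an alternative. Lengths are merged GENCODE 29 exons. Reads carry no molecular identifiers, so intervals and floors cover counting error only. The fit was also run on simulated data as a check of its code, which does not bear on how KD1, KD2 and KD3 vary.

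The members, lists, motifs and alternatives were chosen with earlier results of these data known, and lists therefore get no test. Named genes are the members, HHEX, up to 4 tested genes with the smallest p of each pathway list, and the 5 genes nearest INHBA, of which 1 list gene is not reported here, and any other gene was named after its values were seen. Fits of 1 library against the controls, and of KD1 and KD2 summed as 1 library, were added after the counts were seen.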

Additional observations from a re-analysis of the deposited data

How the results depend on the processing

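The 9 tested members and HHEX were refitted under RLE, upper-quartile and no scaling, no filter, a filter of 1 CPM in 3 libraries, no robust estimation, DESeq2, a replicate block, each library left out and, chosen after seeing the data, KD1 and KD2 summed as 1 library. INHBA stayed positive in all 15 alternatives, at 2.02 to 2.12 in those that keep 6 libraries (adjusted p = 7.26e-14 to 0.0274), at 1.98 to 2.28 with a library left out and at 2.14 (adjusted p = 0.0661) with KD1 and KD2 summed, where 0 members and 0 genes were called (1737 at an unadjusted p under 0.05). Leaving out 1 library gave ranges of -0.32 to 0.25 for BMP2, -0.31 to 0.0867 for TGFB1, -0.0792 to 0.38 for TGFB3, 1.00 to 1.81 for FST, -5.68 to -0.27 for GDF15 and 0 to 3 for the number of members called. BMP2 turned to 0.0057 with RLE scaling and 0.0158 with DESeq2 and 0.12 with KD1 and KD2 summed. BMP4, FSTL3, TGFB2 and HHEX kept their sign and stayed short of the threshold in all 15, but with a library left out ranged from 0.00212 (without KD3) to 0.42, 0.0324 (without control1) to 0.26, 0.0968 (without control2) to 0.43 and -0.73 (without KD1) to -0.11 (without KD3). The count of all genes called was 26, and 31 with RLE, 35 with upper-quartile and 37 with no scaling, 1359 of 28322 without a filter, 774 with DESeq2, and 0 to 4675 with a library left out (0 without KD1, KD2, control2 or control3, where 1789, 1625, 1947 and 1806 genes had an unadjusted p under 0.05). The cause was not tested. Whether the number in the column names, used as a replicate block, pairs the samples could not be decided. Deviations from the group mean correlated at r = -0.05, -0.07 and 0.12 for numbers 1, 2 and 3. Of 3 libraries labelled HHEX shRNA, 1 correlated best with its own number. KD1 and KD2 were so alike (r = 0.989 across log2 CPM) that their deviations can hardly follow different controls. With that block 30 genes were called, INHBA was at 2.10 (adjusted p = 0.0274) and GDF15 at -3.09 (adjusted p = 0.524). Depth limits TGFB3, BMP4 and INHBB, at 67 counts or fewer a library.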

Other observations

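Other SMAD-responsive transcripts were read after their values were seen. ID1, ID3 and TGFBI, like FST, stood above every control in KD1 and KD2 and not in KD3. PMEPA1 and ATOH8 of the same list did so too. No share of all tested genes with this pattern is given, and KD1 and KD2 were alike across genes (r = 0.989). The likeness to FST is therefore not shown to be particular to these transcripts. ID1, an inhibitor of helix-loop-helix factors that BMPs induce, was at 78.0, 59.2 and 11.6 CPM across KD1, KD2 and KD3, against 12.5, 28.2 and 23.4 CPM in the controls. ID3 was at 182, 150 and 44.0 CPM, against 47.3, 83.9 and 76.7 CPM. TGFBI, a matrix protein induced by TGF-beta, was at 1137, 1006 and 433 CPM, against 471, 468 and 353 CPM. BAMBI, a decoy receptor, went the other way, at 3.30, 3.43 and 12.8 CPM, against 8.89, 9.63 and 12.1 CPM. TGIF1, a co-repressor of SMAD targets, differed by little within each group, at 72.2, 72.6 and 73.2 CPM across KD1, KD2 and KD3, against 91.5, 90.9 and 91.0 CPM in the controls (log2 fold change -0.33 with SE 0.11 and edgeR adjusted p = 0.155).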
